A study of Homo sapiens and Mus musculus with 66 samples.

Results

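Of the 30970 windows of 100 kb on the 24 chromosomes of hg19, 858 (2.77%, 85.74 Mb) lay inside exactly 2 of the 3 lists of lamina-associated domains (LADs) called in G1, S and G2 phase HCT116 cells. They were chosen by these 3 sets of calls and nothing else, and fell into 349 windows called in S and G2 but not in G1 (G1-lacking), 145 called in G1 and G2 but not in S (S-lacking), and 364 called in G1 and S but not in G2 (G2-lacking). A further 5508 windows were called in all 3 phases, 1116 in 1 phase and 23488 in none, so that the 858 windows made up 11.47% of the 7482 windows called in any phase. The lists that set this choice covered 20.2% (G1), 22.4% (S) and 20% (G2) of all windows, and the chosen windows were 8.14%, 10.29% and 7.99% of each list. These counts follow from the rule and are not findings about the windows.

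In cTSA-seq, a form of tyramide signal amplification (TSA) mapping that ends in a pull-down of chromatin, a peroxidase directed by an antibody deposits biotin around lamin-B1, and the biotinylated chromatin is pulled down with streptavidin and sequenced beside an input. HCT116, a human colorectal cancer line, was grown without drug and sorted on Hoechst DNA content into G1, S and G2, where the G2 gate also takes mitotic cells; each phase had 2 replicates, each with an input and a pull-down library. Lists that took no part in the choice came from unsorted HCT116 cells (bulk, 50000, 200000 and 1000000 cells), from HCT116 cells sorted as G1 at 90 min (90m G1) or 180 min (180m G1) after release from nocodazole, and from K562, a human leukemia line. For K562 there was a cTSA-seq list of this study and a TSA-seq list that its authors called from earlier published data of another group, made with another lamin-B antibody. All cells were fixed with paraformaldehyde. The calls of the replicates of each phase were intersected before deposit, so a window that lacks a phase may still have been called in 1 replicate of that phase. For 1000000 cells the labels used here hold 1 pull-down library. Each condition is 1 list of positions with no signal, count or depth, no spread between replicates can be given, and no difference below was tested. A list of regions also holds no marker gene levels against which the identity of a line or of a sorted phase could be checked.

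LADs are long stretches of chromatin held at the nuclear lamina, the meshwork of lamins under the inner nuclear membrane. They are known for low gene density, low transcription, AT-rich sequence and late replication. The lamina comes apart in mitosis and contacts are set up again in the next G1, and contacts at a LAD are known to vary from cell to cell.

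Promoter sequences are shown for 2 genes per kind, because the stretches and gene groups described further on turn on these genes. Each run is the 250 bases before the RefSeq start (RefSeq promoter table of GRCh38.p14, found by exact match once in hg19), 5′ to 3′ on the gene's strand, with each CG dinucleotide in capitals. In G1-lacking windows lay NKAIN2 (chr6:124125280-124125529, + strand), which encodes a membrane protein that interacts with the sodium pump, and MKI67 (chr10:129924688-129924937, − strand), which encodes the proliferation antigen Ki-67.
NKAIN2: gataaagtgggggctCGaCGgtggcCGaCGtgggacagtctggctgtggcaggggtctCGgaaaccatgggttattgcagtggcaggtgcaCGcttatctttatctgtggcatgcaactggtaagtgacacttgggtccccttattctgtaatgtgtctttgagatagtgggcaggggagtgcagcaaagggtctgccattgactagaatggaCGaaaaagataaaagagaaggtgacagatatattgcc
MKI67: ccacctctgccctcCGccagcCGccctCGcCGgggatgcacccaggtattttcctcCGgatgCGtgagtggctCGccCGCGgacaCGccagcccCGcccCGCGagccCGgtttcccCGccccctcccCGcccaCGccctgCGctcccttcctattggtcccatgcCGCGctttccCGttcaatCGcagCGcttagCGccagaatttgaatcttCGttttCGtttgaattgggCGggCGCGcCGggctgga
In S-lacking windows lay the zinc finger gene ZNF141 (chr4:331353-331602, + strand) and GABRE (chrX:151143149-151143398, − strand), which encodes the epsilon subunit of the GABA-A receptor.
ZNF141: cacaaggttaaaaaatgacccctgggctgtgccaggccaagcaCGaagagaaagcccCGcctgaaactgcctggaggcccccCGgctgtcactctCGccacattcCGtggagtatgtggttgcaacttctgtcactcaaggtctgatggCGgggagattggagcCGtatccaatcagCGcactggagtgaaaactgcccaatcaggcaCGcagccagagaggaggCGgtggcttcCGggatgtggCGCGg
GABRE: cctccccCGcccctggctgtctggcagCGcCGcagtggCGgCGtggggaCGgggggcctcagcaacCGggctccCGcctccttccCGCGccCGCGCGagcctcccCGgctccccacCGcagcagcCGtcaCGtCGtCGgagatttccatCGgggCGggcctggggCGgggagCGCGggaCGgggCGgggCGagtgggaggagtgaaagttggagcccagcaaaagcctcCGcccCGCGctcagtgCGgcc
In G2-lacking windows lay ALK (chr2:30144453-30144702, − strand), which encodes a receptor tyrosine kinase, and the zinc finger gene ZNF91 (chr19:23578274-23578523, − strand).
ALK: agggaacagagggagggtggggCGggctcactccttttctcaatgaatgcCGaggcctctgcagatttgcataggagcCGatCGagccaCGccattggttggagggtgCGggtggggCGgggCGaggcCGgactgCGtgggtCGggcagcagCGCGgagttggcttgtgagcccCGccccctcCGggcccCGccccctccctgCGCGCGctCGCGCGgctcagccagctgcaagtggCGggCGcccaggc
ZNF91: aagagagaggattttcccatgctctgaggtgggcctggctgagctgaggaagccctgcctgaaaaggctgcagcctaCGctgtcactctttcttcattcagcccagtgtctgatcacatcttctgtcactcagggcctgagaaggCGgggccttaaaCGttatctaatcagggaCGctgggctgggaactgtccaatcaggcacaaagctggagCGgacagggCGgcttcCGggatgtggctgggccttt
The number of CG dinucleotides was 7 for NKAIN2, 30 for MKI67, 13 for ZNF141, 31 for GABRE, 24 for ALK and 7 for ZNF91, and GC content ran from 50.8% for NKAIN2 to 76.8% for GABRE. Over the 35116 promoters in the RefSeq table the median was 11 CG dinucleotides and 58% GC, and 93.94% held at least 1. Each kind thus included a promoter above that CG count, and the G1-lacking and G2-lacking kinds included one below it. NKAIN2, ZNF141 and ALK were the longest named genes of their kind with an entry that could be placed, and MKI67, ZNF91 and GABRE were added after their values were seen.

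The windows formed 455 stretches of neighboring windows of the same kind, 166 G1-lacking, 99 S-lacking and 190 G2-lacking. In each kind the median stretch was 1 window of 100 kb, and 91, 68 and 112 stretches were a single window. The longest stretch measured 1700 kb among G1-lacking, 500 kb among S-lacking and 800 kb among G2-lacking windows. Stretches of 5 or more windows numbered 13, 1 and 14, so long stretches were rarest among S-lacking windows.

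Most stretches sat at a border of a region called in all 3 phases. A stretch with such a window on 1 side (edge) was the rule for 121 of 166 G1-lacking, 85 of 99 S-lacking and 154 of 190 G2-lacking stretches. Stretches with such a window on both sides (inside) numbered 15, 1 and 7, and stretches with none on either side (apart) numbered 30, 13 and 29. Counted as windows, the apart stretches held 115 of 349 G1-lacking, 30 of 145 S-lacking and 95 of 364 G2-lacking windows. Directly beside a window called in all 3 phases lay 43.27% of G1-lacking, 60% of S-lacking and 46.15% of G2-lacking windows, where the share over all windows not called in all 3 phases was 2.86%. LAD calls run in blocks, and members were chosen on the same lists, so nothing is read from this share. Among stretches of at least 200 kb, shares were 25.97%, 29.87% and 25%.

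**Figure D1:**
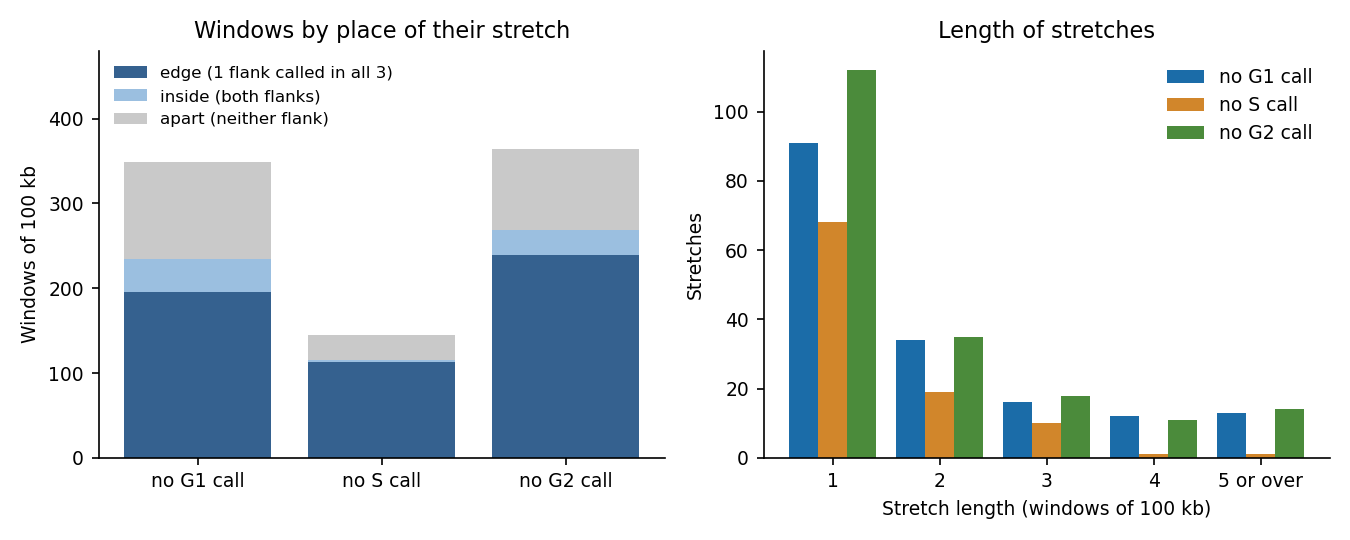
Left, the number of 100 kb windows of each kind (no G1, no S or no G2 call) by the place of their stretch: edge (1 flank called in all 3 phases), inside (both flanks) or apart (neither). Right, the number of stretches by length in windows; edge stretches hold 195, 113 and 239 windows, and single windows are the largest length class in each kind.

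On their outer side, edge stretches gave way to different calls. Of the 121 G1-lacking edge stretches, 51 were followed by a window called in no phase, 51 by a window called in S alone and 19 by a window called in G2 alone. For S-lacking edge stretches 52 of 85 outer neighbors were called in no phase, 17 in G1 alone, 15 in G2 alone, and 1 was a G2-lacking window. For G2-lacking edge stretches 78 of 154 were called in no phase, 44 in S alone and 32 in G1 alone. Over the genome 705 windows were called in S alone, 233 in G1 alone and 178 in G2 alone, so neighbors called in S alone are the most numerous to be met with. Of the apart stretches, 2 G1-lacking, 6 S-lacking and 5 G2-lacking ones had uncalled windows on both sides.

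Inside, edge and apart windows differed in what else was found in them. Of the 39 G1-lacking windows inside regions called in all 3 phases, 17 (43.59%) held the start of a protein-coding gene, against 44 of 195 (22.56%) at edges and 14 of 115 (12.17%) apart. The share was 35.1% over all windows, and the 39 inside windows formed 15 stretches. The 30 G2-lacking inside windows had a median GC content of 36.53% and all 30 were called in bulk HCT116, while the 239 at edges had 40.62% and 210 were called. Over all windows the median GC content was 39.81% and bulk HCT116 called 26.9%. S-lacking windows apart were those least often called in K562, 5 of 30, against 65 of 113 at edges and 39.6% of all windows. These 30 windows formed 13 stretches, and the 5 called ones were 1 stretch, chr15:22000001-22500000.

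The kinds differed in median base composition. The median GC content was 38.53% for G1-lacking windows (quartiles 36.86% and 40.63%), 41.04% for S-lacking windows (38.27% and 43.77%) and 40.4% for G2-lacking windows (37.83% and 42.8%). For comparison it was 37.51% in windows called in all 3 phases, 39.48% in the outermost of these, 40.14% in uncalled windows beside a called one and 39.81% over all windows. The ranges of the 3 kinds overlapped widely, from 33.34% to 49.1% for G1-lacking and from 35.18% to 56.27% for S-lacking windows. GC content was above the median of all windows in 115 of 348 G1-lacking (33.05%), 83 of 144 S-lacking (57.64%) and 207 of 363 G2-lacking windows (57.02%), against 50% of all windows. G1-lacking windows thus lay toward the AT-rich side, and S-lacking and G2-lacking windows toward the GC-rich side, beyond the composition of the outermost windows called in all 3 phases. On autosomes alone the shares for G1-lacking, S-lacking and G2-lacking windows were 33.23%, 66.1% and 63.29%, against 50.88% of all autosomal windows.

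**Figure D2:**
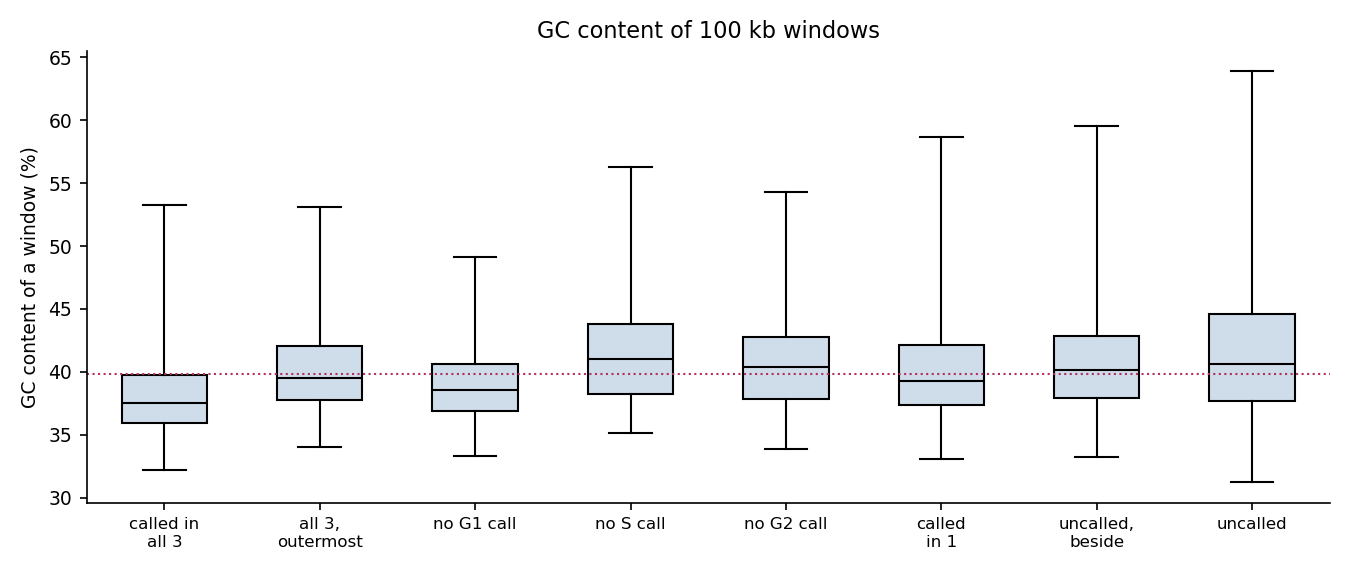
GC content in percent of 100 kb windows by set, with the median (line), quartiles (box) and extremes (whiskers) and the median of all windows (dotted line, 39.81%). G1-lacking windows have a median of 38.53%, below the dotted line, and S-lacking (41.04%) and G2-lacking (40.4%) windows have medians above it.

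Starts of protein-coding genes were less frequent in each kind than over all windows, though more so than in windows called in all 3 phases. The start of a protein-coding gene lay in 75 of 349 G1-lacking (21.49%), 27 of 145 S-lacking (18.62%) and 69 of 364 G2-lacking windows (18.96%), against 35.1% of all windows, 9.91% of windows called in all 3 phases, 15.88% of the outermost of these and 33.87% of uncalled windows beside a called one. With genes of every type counted, the shares were 63.32%, 71.03% and 72.8% against 68.8% of all windows, so that S-lacking and G2-lacking windows then lay above the background. Part of a protein-coding gene was found in 209 G1-lacking (59.89%), 72 S-lacking (49.66%) and 159 G2-lacking windows (43.68%), against 60.9% of all windows. By this measure G1-lacking windows were near the background. Gene bodies without a start were found in 38.4% of G1-lacking, 31.03% of S-lacking and 24.73% of G2-lacking windows, against 25.79% of all windows and 28.26% of the outermost windows called in all 3 phases, so that G2-lacking windows were near the background. Starts per Mb came to 2.61 in G1-lacking, 4.07 in S-lacking and 2.7 in G2-lacking windows, against 6.51 over all windows and 1.35 in windows called in all 3 phases. The higher density of S-lacking windows came with 20 USP17L genes, near-identical copies of a deubiquitinase gene in tandem on chromosome 4, and was 2.69 per Mb without them.

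Windows of 1 kind held 80% or more of the length of 70 (G1-lacking), 54 (S-lacking) and 78 (G2-lacking) of 20163 protein-coding genes. Their median length was 30.75 kb, 3.58 kb and 25.99 kb, and the short S-lacking genes included the USP17L copies. Families of similar genes also gave 8 PRAMEF, 2 POTE and 3 TSPY genes of G2-lacking windows and 2 POTE genes of S-lacking windows. The 2 S-lacking POTE entries overlap each other on chromosome 15. Reads were placed with Bowtie 2.3.2 at its default setting, by which a read that fits several copies equally well is assigned to 1 of them, so calls over such copies are uncertain.

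Gene groups were counted by the same 80% of length. Of all 20163 protein-coding genes 0.347%, 0.268% and 0.387% lay in G1-lacking, S-lacking and G2-lacking windows, and 3.49% in windows called in all 3 phases. Of 414 olfactory receptor genes, which serve smell and lie in clusters, none was in G1-lacking, 11 in S-lacking and 4 in G2-lacking windows, with 127 in windows called in all 3 phases. The 11 came from 2 clusters, with OR4K17, OR4K13, OR4K1 and others on chromosome 14 and OR4M2 and others on chromosome 15. On chromosome 15 some of the annotated genes overlap each other, so the 11 are not all separate places. Of 509 zinc finger genes, many of which encode repressors of transcription, none was in G1-lacking, 5 in S-lacking and 19 in G2-lacking windows, with 30 in windows called in all 3 phases. Of these 19, 16 lay on chromosome 19, among them ZNF675, ZNF420, ZNF254 and ZNF91, and the S-lacking ones were ZNF718, ZNF141 and ZNF732 on chromosome 4 and ZNF268 and ZNF10 on chromosome 12. ZNF10 was named after its position was seen, to complete the 5. Members of 1 cluster share their windows, so these counts are of few places.

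Smaller groups gave single genes. Of 245 homeobox and other developmental factors, 3 were in G1-lacking windows, namely TBX5 (heart and forelimb), POU4F1 (sensory neurons) and FOXI2, and 2 in G2-lacking windows, namely SOX1 (neural progenitors) and FOXI1 (inner ear and kidney). The chemokine genes CCL11, CCL8, CCL13 and CCL1 lay together in G2-lacking windows on chromosome 17 and made up 4 of 125 cytokine and chemokine genes. SLC17A6, a vesicular glutamate transporter, was the sole member among 371 solute carriers, in G1-lacking windows. GABRE, whose promoter is shown above, was the S-lacking member of 222 ion channel and neurotransmitter receptor genes. No cadherin (of 101), keratin (of 149), cytosolic ribosomal protein (of 82) or listed cell cycle and replication gene (of 62) had 80% of its length in windows of 1 kind. Of the last list 61 (98.39%) lay in windows called in no phase, against 92.57% of all protein-coding genes. That list holds chosen symbols and is not complete, as MKI67, which lay in G1-lacking windows, was not on it.

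Some windows lay within very long genes. Windows in such genes were not counted, so no share beside that of all windows is given. RBMS3, an RNA-binding protein gene of 1436 kb, had 54.59% of its length in windows called in 2 of 3 phases and 0% in windows called in all 3. FHIT, a gene of 1504 kb at a common fragile site, had 37.7% and 6.65%. In contrast CNTNAP2, a neuronal adhesion gene of 2305 kb, had 4.34% and 94.88%. These 3 genes were picked after their values were seen.

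The chromosomes carried the kinds in different proportion. Counts in part followed chromosome size, as chromosome 2 held 80 of the 858 windows (9.32%, against 7.85% of all windows) and chromosome 22 held 5 (0.583%, against 1.66%). Chromosome X held 71 (8.28%, against 5.02%) and chromosome 6 held 60 (6.99%, against 5.53%). G1-lacking windows were found on 20 chromosomes and were absent from 17, 19, 21 and 22, while S-lacking and G2-lacking windows were found on all 24. On chromosome 2 there were 47 G1-lacking, 4 S-lacking and 29 G2-lacking windows, and on chromosome 6 there were 37, 4 and 19. Chromosome 15 held 16 S-lacking windows, the highest count of that kind on any chromosome, and X followed with 15. Chromosome 19, rich in genes and GC, held 27 windows, of which 26 were G2-lacking, and these compared with 48 windows called in all 3 phases. On chromosome 4 the reverse was seen, with 18 windows beside 233 called in all 3 phases.

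**Figure D3:**
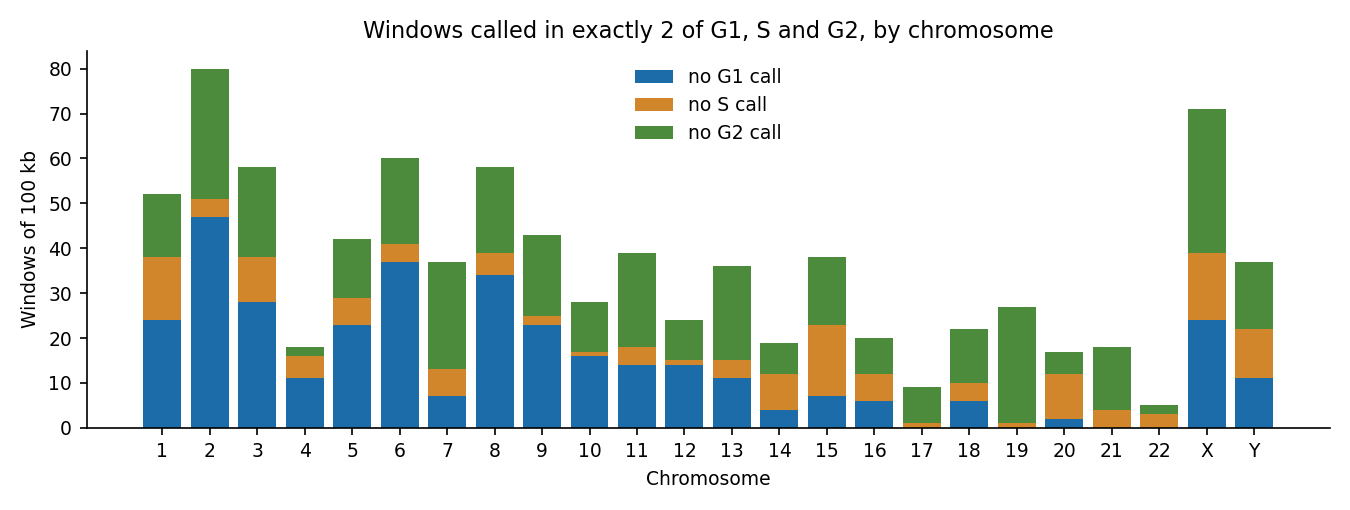
Number of 100 kb windows called in exactly 2 of G1, S and G2 on each chromosome, stacked by the phase without a call. Chromosome 2 has the tallest bar (80 windows), chromosome 19 is almost entirely G2-lacking (26 of 27), and G1-lacking windows are missing from 17, 19, 21 and 22.

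Position along the chromosome also differed. Within 5 Mb of a chromosome end lay 10 of 349 G1-lacking (2.87%), 18 of 145 S-lacking (12.41%) and 44 of 364 G2-lacking windows (12.09%), against 7.75% of all windows and 7.06% of those called in all 3 phases. The median distance to the nearer end was 36 Mb, 23.8 Mb and 24 Mb. Chromosome Y, with 37 windows, was the 1 chromosome where windows called in 2 of 3 phases outnumbered those called in all 3, which were 17. K562 carries no Y chromosome, yet its cTSA-seq list called 33 of the 594 Y windows, 11 of the 37 among them, and its TSA-seq list called 51 and 12. The part of reads shared with other chromosomes in these calls was not tested, and shares on autosomes are given below where K562 is described.

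In bulk HCT116 cells most of the windows were called. The bulk list called 252 of 349 G1-lacking (72.21%), 108 of 145 S-lacking (74.48%) and 324 of 364 G2-lacking windows (89.01%), against 26.9% of all windows. Windows called in all 3 phases were called in 97.57%, the outermost of these in 93.94%, and uncalled windows beside a called one in 48.74%. Windows called in 1 phase were called in 59.32% (G1 alone 72.96%, S alone 53.05%, G2 alone 66.29%). The 3 kinds thus lay between the outermost windows called in all 3 and the uncalled neighbors, as did windows called in 1 phase. G2-lacking windows came nearest to the windows called in all 3.

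The order of the kinds in bulk was also that of the list from 200000 cells, but not of those from 1000000 or 50000 cells. With 1000000 cells 44.99% of G1-lacking, 70.34% of S-lacking and 63.74% of G2-lacking windows were called, against 21.2% of all windows. With 200000 cells the shares were 62.46%, 66.21% and 70.6% against 21.9%, and with 50000 cells 72.21%, 87.59% and 82.42% against 22.8%. G1-lacking windows had the lowest share in each of these lists and in bulk. Called in all 4 unsorted lists were 90 G1-lacking (25.79%), 53 S-lacking (36.55%) and 172 G2-lacking windows (47.25%). The share was 18.13% of all windows and 91.27% of windows called in all 3 phases. In none of the 4 were 10 G1-lacking (2.87%), 2 S-lacking (1.38%) and 0 G2-lacking windows, against 69.87% of all windows. Of the outermost windows called in all 3 phases, 71.47% were in all 4 lists and 0 in none, of windows called in 1 phase 8.96% and 16.31%, and of uncalled windows beside a called one 8.49% and 35.59%. Windows in some but not all unsorted lists were thus common in these sets too.

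**Figure D4:**
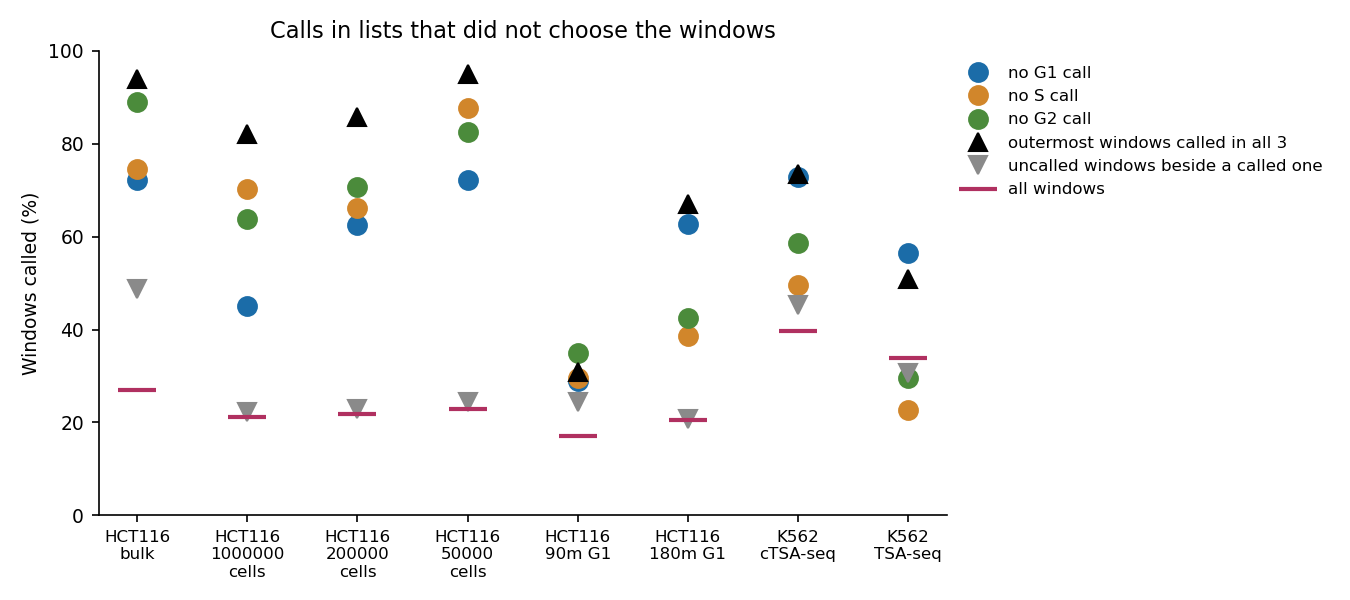
Percent of 100 kb windows called in each list that did not choose them, for the 3 kinds (circles), the outermost windows called in all 3 phases (up triangles), uncalled windows beside a called one (down triangles) and all windows (bars). In bulk HCT116 the 3 kinds lie between 72.21% and 89.01%, and in the K562 TSA-seq list S-lacking (22.76%) and G2-lacking (29.67%) windows lie under the share of all windows (33.9%).

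After mitosis the kinds behaved differently in the later G1 list. At 90m G1 101 G1-lacking (28.94%), 43 S-lacking (29.66%) and 127 G2-lacking windows (34.89%) were called, against 17% of all windows and 32.23% of windows called in all 3 phases. At 180m G1 the counts were 219 (62.75%), 56 (38.62%) and 155 (42.58%), against 20.5% of all windows and 85.06% of windows called in all 3 phases. G1-lacking windows, although not in the list of G1 cells from undrugged cultures, were the kind most often in the 180m G1 list. Called at 180m but not at 90m were 158 G1-lacking (45.27%), 35 S-lacking (24.14%) and 102 G2-lacking windows (28.02%), against 13.77% of all windows. Called at 90m but not at 180m were 40 (11.46%), 22 (15.17%) and 74 (20.33%), against 10.32% of all windows. In this last state G1-lacking windows were near the background. The study's methods describe an intersection of replicate calls, but these 2 lists, unlike those of G1, S and G2, are not named as consensus lists. The drug cannot be told apart from time in G1.

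In K562 the order was that of the 180m G1 list. The cTSA-seq list called 254 G1-lacking (72.78%), 72 S-lacking (49.66%) and 213 G2-lacking windows (58.52%), against 39.6% of all windows and 86.15% of those called in all 3 phases. It called 73.49% of the outermost windows called in all 3 phases and 61.47% of windows called in 1 phase (S alone 72.34%). Of uncalled windows beside a called one it called 45.3%. The published TSA-seq data gave a list that called 56.45%, 22.76% and 29.67%, against 33.9% of all windows, so that S-lacking and G2-lacking windows were then below the background. The TSA-seq list called 50.87% of the outermost windows called in all 3, 41.76% of windows called in 1 phase and 30.54% of uncalled neighbors. For windows called in S alone it was 55.46%, so in both lists G1-lacking windows were near that set. On autosomes the cTSA-seq shares were 76.11%, 54.62% and 57.1%, against 39.58% of all autosomal windows. Both K562 methods called 53.58% of G1-lacking, 20.69% of S-lacking and 26.92% of G2-lacking windows, against 30.1% of all windows. Regions of cTSA-seq alone took 10.32%, 18.62% and 22.8%, against 6% of all windows. Regions that both methods listed as depleted took 0 G1-lacking, 6 S-lacking and 15 G2-lacking windows, against 20.9% of all windows.

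Bulk HCT116 and K562 called the same windows in part. Called in both were 174 G1-lacking (49.86%), 52 S-lacking (35.86%) and 191 G2-lacking windows (52.47%), against 19.11% of all windows. Called in bulk HCT116 but not in K562 were 78, 56 and 133, and called in K562 but not in bulk HCT116 were 80, 20 and 22. Neither list called 17 (4.87%), 17 (11.72%) and 18 windows (4.95%), against 52.53% of all windows. For G1-lacking windows the share called in K562 alone (22.92%) was near that of all windows (20.53%), while the share called in bulk alone (22.35%) lay above that of all windows (7.84%). For S-lacking and G2-lacking windows the shares called in bulk alone were 38.62% and 36.54%, and those called in K562 alone were 13.79% and 6.04%.

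GC content moved with these states in opposite directions in the lists. Of G1-lacking windows at or below the median GC content, 60.94% were called in bulk HCT116 and 76.82% in the K562 TSA-seq list, while above the median the shares were 94.78% and 15.65%. For S-lacking windows the shares were 55.74% and 47.54% at low GC content, and 89.16% and 4.82% at high GC content. For G2-lacking windows they were 82.05% and 61.54%, and 94.2% and 5.8%. The 90m G1 list went the way of bulk, with 15.02%, 13.11% and 10.26% of the 3 kinds called at low GC content and 57.39%, 42.17% and 53.14% at high GC content. The K562 cTSA-seq list went the way of TSA-seq less steeply, with 82.83%, 59.02% and 75.64% at low and 52.17%, 43.37% and 45.89% at high GC content. These contrasts were not particular to the 3 kinds. Over all windows the shares at low and high GC content were 9.07% and 27.39% at 90m G1, 68.67% and 4.26% in K562 TSA-seq, and 67.13% and 18.19% in K562 cTSA-seq. The bulk list called 34.64% and 23.34% of all windows, but within other sets it also called more at high GC content, with 4.03% and 10.34% of windows called in no phase, 44.09% and 78.73% of those called in 1 phase, and 89.9% and 98.56% of the outermost windows called in all 3. GC content was not varied by the study, and its part in the calls was not tested.

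Across the edge stretches, calls fell away over a few windows. At G2-lacking edges bulk HCT116 called 95.45% of the last windows called in all 3 phases, 87.87% of the windows of the stretch, 64.29% of the windows next outward and 29.87% of those 5 windows out. At G1-lacking edges the shares were 91.74%, 80.51%, 58.68% and 29.41%, and at S-lacking edges 88.24%, 78.76%, 57.65% and 17.86%. K562 calls fell from 78.51% to 46.22% between the same end points at G1-lacking edges, from 65.88% to 26.19% at S-lacking edges and from 68.18% to 24.03% at G2-lacking edges. Windows with a gene start went the other way, from 12.4% to 31.09%, from 17.65% to 53.57% and from 14.94% to 51.3%. In the bulk and K562 lists the share for the stretch itself lay between those of its flanks in each kind.

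**Figure D5:**
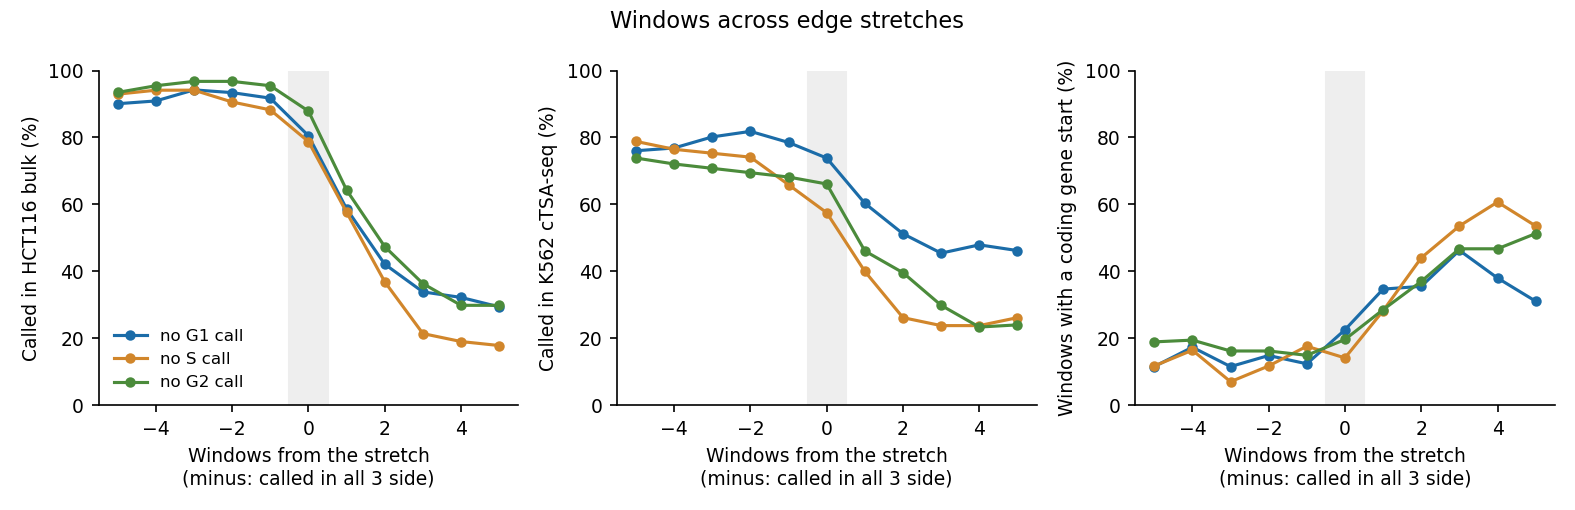
Percent of windows called in bulk HCT116 (left), called in K562 cTSA-seq (middle) and with a protein-coding gene start (right) by distance in 100 kb windows from edge stretches, which are at 0 (shaded); negative positions lie on the side called in all 3 phases. In bulk HCT116 all 3 lines fall from 88.24% or more at position −1 to 29.87% or less at position 5.

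The longest stretches show how unlike single places were. The longest of all, G1-lacking, was chr6:123400001-125100000, 17 windows at 35.84% GC. It held TRDN, which encodes triadin of the muscle calcium release complex, and most of NKAIN2. None of the 17 was called in bulk HCT116 or at 90m G1, while all 17 were called at 180m G1, in both K562 lists and with 50000 cells. The next, chr2:217700001-218600000 with TNP1, a spermatid protein gene, was the reverse, as all 9 windows were called in bulk and at 90m G1 and none at 180m G1, in K562 or with 200000 and 1000000 cells. Within PLCL1 and beside it, chr2:199000001-199800000 was called in 0 of 8 windows in bulk and in 6 in K562. Over RBMS3, chr3:28600001-29400000 was called in 0 of 8 in bulk, 7 at 180m G1 and 8 in K562.

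The G1-lacking stretch with Ki-67 was of the GC-rich kind. It spanned chr10:129200001-130000000, 8 windows at 44.1% GC, lay at an edge, and held NPS (neuropeptide S), FOXI2, CLRN3, PTPRE (a tyrosine phosphatase) and MKI67, whose promoter above had 30 CG dinucleotides. All 8 windows were called in bulk HCT116, at 90m G1 and in K562 cTSA-seq, and none at 180m G1, in K562 TSA-seq or with 50000 or 200000 cells.

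Among S-lacking stretches, chr15:22000001-22500000 held LINC02203, OR4M2-OT1, POTEB3 and POTEB, longest first, with OR4M2 and other olfactory receptor genes. None of its 5 windows was called in bulk HCT116 although all 5 were called with each of the 3 cell numbers. The stretch chrX:151100001-151500000, with GABRE and MAGEA10, a testis antigen gene, was called in 4 of 4 windows in bulk, at 90m G1 and at 180m G1, and all 4 were listed as depleted by both methods in K562. At chr1:34200001-34500000, with HMGB4, 3 of 3 windows were called in bulk and 2 in K562. Of chr1:142900001-143200000, where 50% of the bases are unknown, 1 of 3 was called in bulk. At chr3:75300001-75600000, without a coding gene, 3 of 3 were called in bulk and 1 in K562.

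Among G2-lacking stretches, chr6:92100001-92900000 had no coding gene, 35.35% GC and flanks called in all 3 phases, and all 8 windows were called in bulk, with each cell number, at 180m G1 and by both K562 methods, and none at 90m G1. At chr13:112200001-113000000, with SOX1 and 48.15% GC, all 8 windows were called in bulk and at 90m G1 and none at 180m G1 or in K562. The zinc finger stretch chr19:23300001-24100000, with ZNF675, RPSA2, ZNF91 and ENSG00000283201 as its longest genes, was called in all 8 windows in bulk and with each cell number, and in none at 90m G1, at 180m G1 or in K562. At chr2:29500001-30200000, within ALK, all 7 windows were called in bulk, at 90m G1 and in K562 cTSA-seq, and none at 180m G1, in K562 TSA-seq or with 1000000 cells. At chr8:96400001-97100000 all 7 were called in bulk and 5 in K562 cTSA-seq. Bulk HCT116 thus called the 5 longest G2-lacking stretches in full, while of the 5 longest G1-lacking ones it called 2 in full and 3 not at all.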

How the data were processed

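The values deposited by the authors were the positions of called regions in bp, without signal, count or ratio. Per the study's methods, reads were aligned to hg19 with Bowtie 2.3.2, duplicates were removed, and reads were counted with bedtools 2.26.0. Pull-down and input were scaled to the same total, their log2 ratio was turned into a z-score, and a Hidden Markov Model with 3 states called LADs, which were intersected between replicates. Regions were placed on 100 kb windows of hg19, and 14 lists were used. Other data types of the series were not used here. GC content came from the hg19 sequence over known bases, and 2308 windows with more than 50% unknown bases stayed in the totals, 7 of them among the 858. Genes came from GENCODE release 44 lifted to hg19. Promoters came from RefSeq, and 55 of 67 named genes had an entry. The depth behind a call is unknown. With 1 merged list per condition no test was made. The steps were tested on simulated lists. Named stretches were the 5 longest of each kind, and named genes were at most 4 per stretch and at most 4 per gene list and kind, longest first, so that a gene can be named by either. Genes named outside this rule are marked as such or were counted in families of copies. Windows and gene lists were chosen with earlier results of these data known. Python 3.11.15, numpy 2.4.6, pandas 2.3.3 and matplotlib 3.10.9 were used.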

Additional observations from a re-analysis of the deposited data

How the results depend on the processing

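The limits are those of the lists. A window without a call may have been missed in 1 replicate or lie just under a state boundary, and neither can be seen without signal or depth. Of 84 values recomputed with other settings, 65 stayed within the 95% binomial interval of the value, or within 1.5 times of a count, and 15 moved without crossing the share of all windows, while 4 crossed it. That interval takes windows as separate draws, although neighbors are called in blocks and the settings reuse the same windows. It is a yardstick for the size of a change and measures no spread of the lists. Values are given for G1-lacking, S-lacking and G2-lacking windows in turn. The 4 were gene shares of 71.03% and 72.8% with genes of all types (S-lacking and G2-lacking, background 68.8%, where G1-lacking gave 63.32%) and K562 shares of 22.76% and 29.67% in the TSA-seq list (background 33.9%, where G1-lacking gave 56.45%). With stretches of at least 200 kb alone, 25.97%, 29.87% and 25% lay directly beside a window called in all 3 phases, 77 S-lacking windows were left, and 64.94% of them were called in bulk HCT116. Within 200 kb in place of directly beside, the shares were 56.73%, 74.48% and 62.91%, against 5.42% of windows not called in all 3 phases. GC content exceeded the median of windows called in no phase in 24.43% of G1-lacking and 47.93% of G2-lacking windows, against 43.25% of all windows. On autosomes it exceeded the median of all windows in 66.1% of S-lacking and 63.29% of G2-lacking windows, against 50.88% of all autosomal windows. With stretches as the unit, 78.92% of G1-lacking stretches were called in bulk HCT116. The starts per Mb of S-lacking windows were 2.69 without USP17L genes, a setting added after the data were examined. Beyond what the settings themselves change, the cause was not tested.

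Leaving out each chromosome in turn moved no value beyond these bounds, but for counts it could not have done so. No chromosome held more than 13.47% of the windows of a kind, too few to change a count 1.5 times. Shares were compared with shares over mostly the same windows, which left little room to move. The ranges are given as description, and nothing is read from their staying within the bounds. Counts ranged from 302 to 349, from 129 to 144 and from 332 to 362, border shares from 42.02% to 47.02%, from 58.52% to 62.79% and from 45.18% to 47.63%, and shares with high GC content from 30.79% to 35.69%, from 54.96% to 62.02% and from 54.6% to 61.03%. Shares with a gene start ranged from 20.62% to 22.85%, from 15.38% to 20% and from 16.57% to 19.83%, bulk shares from 69.84% to 76.6%, from 72.31% to 78.36% and from 88.24% to 91.01%, and K562 shares from 71.78% to 74.56%, from 46.51% to 52.24% and from 56.12% to 62.72%. No paired analysis was possible because each condition has 1 list of positions and no values per replicate.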
